A study of Mus musculus with 2 samples.

Results

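The 10 genes described here make, receive or damp the transforming growth factor beta (TGF-beta) signal. They were chosen by name for their place in the pathway, and each of the 10 symbols matched 1 of the 41592 gene IDs in the deposited table. All 10 had a mean of at least 1 FPKM (reads scaled by gene length and by the size of the library), so none was lost to the filter on low values. The RNA came from YFP-positive CD4+ T cells taken from spleen and lymph node when C57BL/6 mice were 6 to 8 weeks old. Every mouse carried the genotype Foxp3 dCNS1-Cre-R26-YFP: Cre driven by Foxp3 regulatory DNA from which the element CNS1 was removed, and a YFP reporter at Rosa26 that stays on in a cell and its progeny once Cre has acted. From these cells 1 library was made of the Thy1.1-negative and 1 of the Thy1.1-positive population, sorted to a purity of typically over 97%. The series names its populations as thymus-derived regulatory T (Treg) cells and exFoxp3 precursors, but gives both the same markers in its design text, and its protocol calls both Treg cells, so the libraries are called Thy1.1-negative and Thy1.1-positive here. The labels do not say how many mice went into each library, nor what drives Thy1.1, and the deposited columns were matched by reading N and P as negative and positive.

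TGF-beta is secreted in a latent form: furin cuts the precursor, and the propeptide stays wrapped around the ligand until integrins or proteases release it. On Treg cells the latent complex is held at the surface by GARP, the product of Lrrc32. Free ligand binds the type II receptor, which activates the type I receptor, which phosphorylates Smad2 and Smad3, and these enter the nucleus with Smad4. Smad7 and Pmepa1 are induced by the signal and damp it. The pathway is known for inducing Foxp3 outside the thymus through a Smad site in CNS1, the element taken out of the Cre driver here. The values below are transcript levels, which measure neither protein nor phosphorylated Smads.

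Promoter sequences are shown for a ligand, a receptor and a Smad, because Tgfb1 and Tgfbr2 were lower and Smad3 was higher in Thy1.1-negative cells. Each runs from 250 bases before to 50 bases after the transcription start, 5′ to 3′ on the gene's strand, from RefSeq on GRCm38.p6. Entries were found for 5 of the 10 members (Tgfb1, Furin, Tgfbr1, Tgfbr2 and Smad3). Capitals mark CAGAC on either strand (CAGAC or GTCTG), the core of the Smad-binding CAGA box, and GGGCGG on either strand (GGGCGG or CCGCCC), the GC box. These motifs do not overlap in the windows printed.
Tgfb1, chr7:25686752-25687051, plus strand: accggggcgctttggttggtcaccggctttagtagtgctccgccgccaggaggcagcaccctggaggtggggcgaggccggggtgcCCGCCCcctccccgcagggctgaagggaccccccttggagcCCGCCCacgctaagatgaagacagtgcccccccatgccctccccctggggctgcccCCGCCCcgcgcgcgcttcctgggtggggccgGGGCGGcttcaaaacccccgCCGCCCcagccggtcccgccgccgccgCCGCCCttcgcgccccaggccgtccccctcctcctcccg
Tgfbr2, chr9:116175314-116175613, minus strand: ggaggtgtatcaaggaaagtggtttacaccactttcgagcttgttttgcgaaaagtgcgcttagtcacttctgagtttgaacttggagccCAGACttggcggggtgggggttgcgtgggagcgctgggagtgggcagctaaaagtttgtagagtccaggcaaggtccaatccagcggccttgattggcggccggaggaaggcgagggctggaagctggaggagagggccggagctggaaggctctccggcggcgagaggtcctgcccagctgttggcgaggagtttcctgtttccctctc
Smad3, chr9:63757945-63758244, minus strand: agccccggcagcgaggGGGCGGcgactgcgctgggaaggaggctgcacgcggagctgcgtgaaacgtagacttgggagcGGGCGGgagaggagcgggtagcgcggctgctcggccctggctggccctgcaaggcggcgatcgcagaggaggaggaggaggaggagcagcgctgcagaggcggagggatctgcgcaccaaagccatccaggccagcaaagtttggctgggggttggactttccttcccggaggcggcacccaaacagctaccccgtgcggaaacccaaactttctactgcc

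The Tgfb1 window held 6 GC boxes and no CAGAC, the Smad3 window held 2 GC boxes and no CAGAC, and the Tgfbr2 window held 1 CAGAC, 160 bases before the start, and no GC box. CAGAC occurred in 49.6% of the 32851 RefSeq promoter windows of this length and the GC box in 35.7%, so neither is rare. The palindrome GTCTAGAC, which joins a pair of Smad cores, was in 0.213% of all windows and in none of the 7 windows of these 5 genes. The Tgfb1 window was 77.0% G and C against a median of 52.7%. These matches describe the letters of each window.

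Most members were lower in Thy1.1-negative cells, and the ligand, its anchor and the feedback genes differed most. Of the 10, 8 lay below 0 and 2 above on the difference in log2(FPKM + 1), Thy1.1-negative minus Thy1.1-positive. Their median was -0.30, while the median of the 12820 genes with a mean of at least 1 FPKM was 0.03 and 44.9% of those genes lay below 0. No member differed by 2-fold, a size reached by 1.15% of all genes in the lower and 1.93% in the higher direction. By a smaller rule, the higher level at least 25% above the lower one on the FPKM + 1 scale, 5 members were lower (Pmepa1, Lrrc32, Smad7, Tgfb1 and Tgfbr2) and 1 was higher (Smad3), beside 10.7% of all genes lower and 15.2% higher. Among the 3031 genes with a mean of at least 40 FPKM, where 9 of the 10 members lie, 5.97% were lower and 11.4% higher by this rule. With 1 library per population there is no replicate error behind any of these values and no p-value was computed.

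The upper quartile was taken over the IDs above 0 in each library, which need not be the same IDs. Its factor on the Thy1.1-negative values was 1.19, against 0.975 to 0.992 for the other 4 rescalings. Rescaling both libraries to the same upper quartile moved the median of all genes from 0.03 to 0.26. It moved the members' median to -0.05, which is -0.31 from the median gene against -0.33 with the deposited values. The split by the 25% rule then became 2 lower (Pmepa1 and Lrrc32) and 2 higher (Smad3 and Smad2), and Smad7 (-0.29), Tgfb1 (-0.24) and Tgfbr2 (-0.08) no longer passed it. Under that rescaling 5.03% of all genes were lower and 40.5% higher by the same rule. The other 4 rescalings left all 5 lower genes past the 25% rule, but Smad3 was within it after centring on the median gene (0.30) or leaving out the 100 highest genes (0.30).

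**Figure D1:**
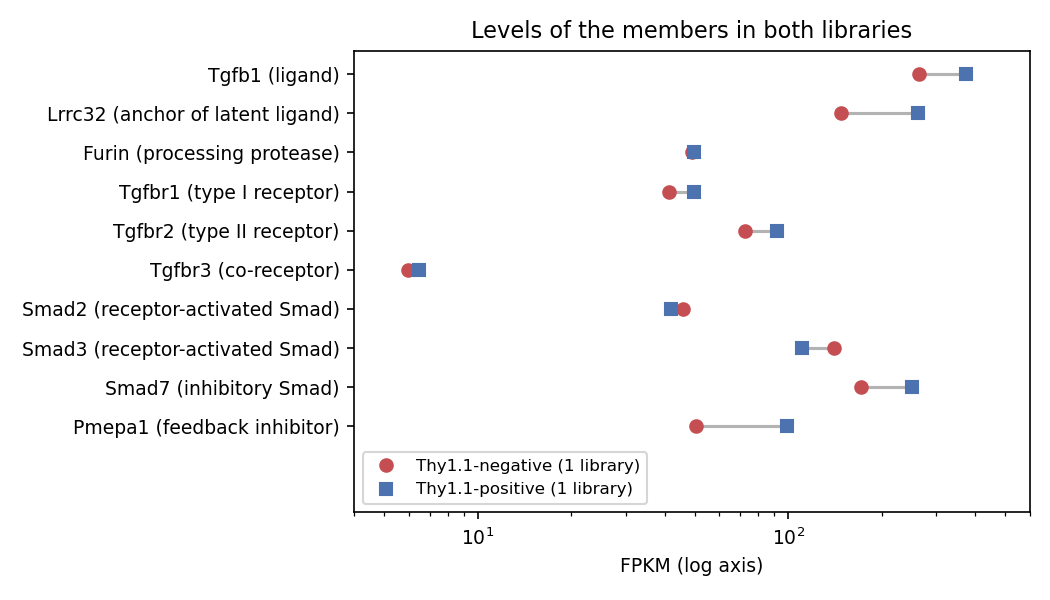
FPKM of each member (log axis) in Thy1.1-negative cells (red circles) and Thy1.1-positive cells (blue squares), 1 library each, ordered by role. Tgfb1, Lrrc32, Smad7 and Pmepa1 have the blue square well to the right, and Smad2 and Smad3 have it to the left.

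Tgfb1, which encodes the ligand, stood at 264 FPKM in Thy1.1-negative cells and 373 FPKM in Thy1.1-positive cells. These rest on 5495 and 7793 reads, and the ratio was 0.708 with a 95% counting interval of 0.683 to 0.733. Tgfb1 was the most abundant member in both libraries by deposited FPKM, at rank 339 and rank 227 among all IDs. The interval covers counting error alone and leaves out variation between mice, sorts and library preparations.

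Lrrc32, whose product GARP holds latent TGF-beta on the cell surface, stood at 148 FPKM in Thy1.1-negative and 262 FPKM in Thy1.1-positive cells. The ratio was 0.563 (0.550 to 0.577), so the anchor was 1.78-fold higher in Thy1.1-positive cells. Its difference of -0.82 ranked 257 from the lowest among the 12820 genes. Per Tgfb1, Lrrc32 was also lower: its FPKM was 0.560 of that of Tgfb1 in Thy1.1-negative and 0.703 in Thy1.1-positive cells, a change of 0.796 (0.763 to 0.831). A ratio of 2 genes within a library is not moved by any rescaling. In a bulk sample, fewer cells that express a gene and less RNA per cell cannot be told apart.

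Furin, the protease that cuts the Tgfb1 precursor, was level, with 48.9 FPKM in Thy1.1-negative and 49.6 FPKM in Thy1.1-positive cells. Its ratio was 0.986, and the interval of 0.936 to 1.04 held 1. Relative to Tgfb1, Furin was 1.39-fold higher in Thy1.1-negative cells (1.31 to 1.48). Thus the ligand and its anchor were lower where the protease of the ligand was level with the deposited scaling. With the upper quartile the difference of Furin became 0.23, so its sign turned.

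The signalling receptors were lower by less than the ligand. Tgfbr2, the type II receptor that binds the ligand first, stood at 72.6 FPKM in Thy1.1-negative cells and 91.9 FPKM in Thy1.1-positive cells, a ratio of 0.790 (0.767 to 0.814). Tgfbr1, the type I receptor kinase, stood at 41.2 and 49.9 FPKM, a ratio of 0.827 (0.778 to 0.879). The Tgfbr2 level was 1.76 times that of Tgfbr1 in Thy1.1-negative and 1.84 times in Thy1.1-positive cells. That change of 0.955 had an interval of 0.893 to 1.02, so the receptor pair kept its proportion within counting error. With a difference of -0.34, Tgfbr2 passed the 25% rule by little and was just inside it with a pseudocount of 5 (-0.32), and Tgfbr1 at -0.27 did not pass.

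Tgfbr3, the co-receptor betaglycan, was the least abundant member, with 5.97 FPKM in Thy1.1-negative cells and 6.46 FPKM in Thy1.1-positive cells. The 304 and 330 reads give a ratio of 0.924 with an interval of 0.788 to 1.08, so no difference was detectable at this depth. It was also the member with the widest interval.

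**Figure D2:**
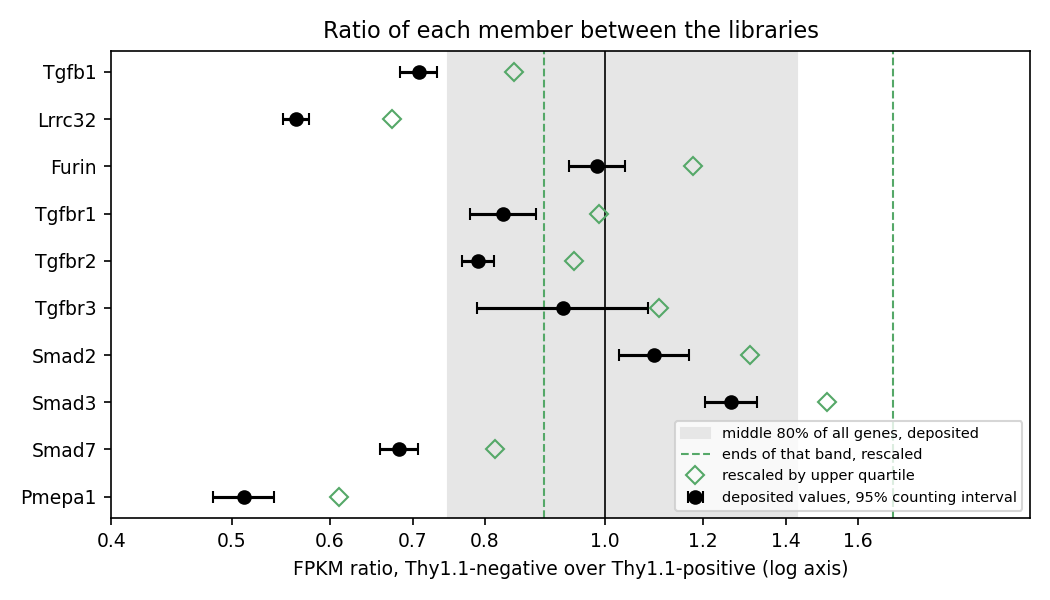
FPKM ratio of each member, Thy1.1-negative over Thy1.1-positive (log axis), with 95% counting intervals (black), the ratio after upper-quartile rescaling (green diamonds) and the middle 80% of genes with a mean of at least 1 FPKM (grey as deposited, green dashed ends after the same rescaling). Pmepa1, Lrrc32, Smad7 and Tgfb1 lie below the deposited band of 0.747 to 1.43 and, rescaled, below the rescaled band of 0.893 to 1.71, and the other 6 members lie inside both, since the factor moves all genes alike.

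The receptor-activated Smads went the other way. Smad3, which mediates the transcriptional response in T cells, stood at 140 FPKM in Thy1.1-negative and 111 FPKM in Thy1.1-positive cells, a ratio of 1.26 (1.20 to 1.33). Smad2, its close relative, stood at 45.9 and 41.9 FPKM, a ratio of 1.095 (1.03 to 1.17). Both were higher in Thy1.1-negative cells. The other 8 members lay below 0 with the deposited scaling, but the intervals of Furin and Tgfbr3 among them held 1. Smad3 passed the 25% rule by little, as 15.2% of all genes did in that direction, and Smad2 did not pass. From the lowest of 12820 differences, Smad3 ranked 10979 and Smad2 ranked 8329. Smad3 was the more abundant of this pair, at 3.06 times the FPKM of Smad2 in Thy1.1-negative cells and 2.65 times in Thy1.1-positive cells, a change of 1.15 (1.06 to 1.253).

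Smad7, the inhibitory Smad that blocks the type I receptor, stood at 171 FPKM in Thy1.1-negative cells and 251 FPKM in Thy1.1-positive cells. Its ratio of 0.682 (0.659 to 0.707) came from 5158 and 7584 reads. Smad7 kept its proportion to Tgfb1 within counting error, at 0.649 and 0.673 of the ligand's FPKM, a change of 0.965 (0.918 to 1.01). Against Smad3 the proportion differed: Smad3 was at 0.819 of the Smad7 level in Thy1.1-negative cells and at 0.442 in Thy1.1-positive cells, a change of 1.85 (1.74 to 1.97).

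Pmepa1, a membrane protein that sequesters receptor-activated Smads, had the largest difference of the 10. Its level was 50.6 FPKM in Thy1.1-negative cells and 99.04 FPKM in Thy1.1-positive cells, from 1833 and 3598 reads. The ratio was 0.511 (0.483 to 0.541), or 1.96-fold higher in Thy1.1-positive cells, and the difference of -0.95 was just inside 2-fold. It ranked 168 from the lowest of 12820 genes. Smad3 was at 2.77 times the Pmepa1 level in Thy1.1-negative and 1.12 times in Thy1.1-positive cells, which was the largest change of the 11 proportions computed, at 2.47 (2.29 to 2.66). The proportions were chosen after the values were seen.

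**Figure D3:**
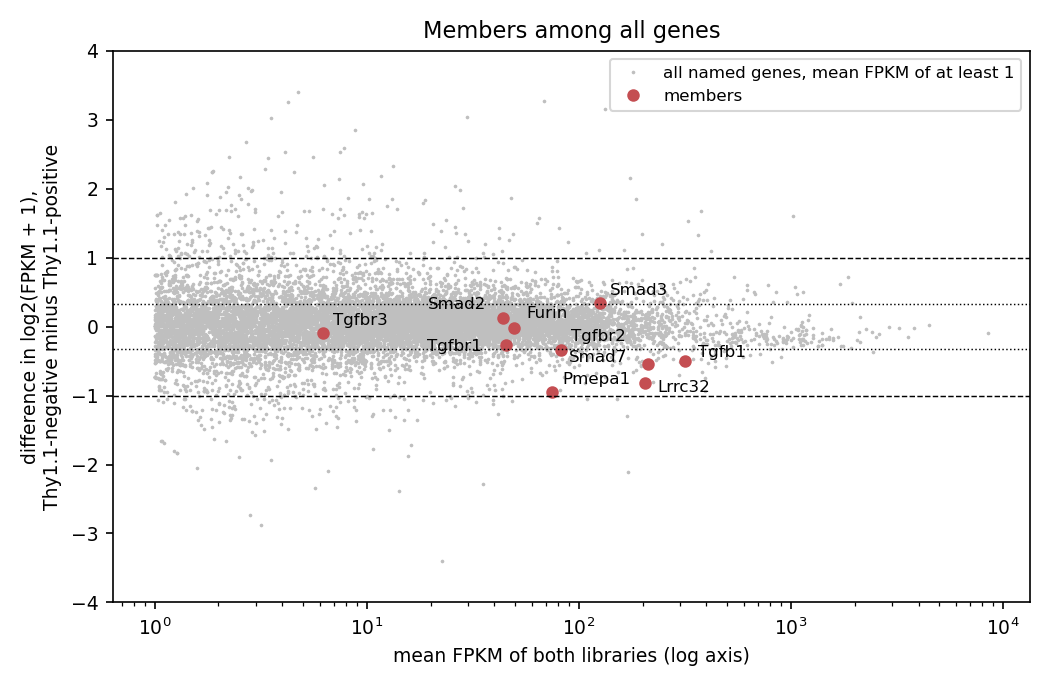
Difference in log2(FPKM + 1), Thy1.1-negative minus Thy1.1-positive, against mean FPKM (log axis) for genes with a symbol and a mean of at least 1 FPKM (grey) and the 10 members (red). Dashed lines mark 2-fold and dotted lines the 25% rule, and no member crosses a dashed line.

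The order of the levels was not the same in the libraries. In the Thy1.1-positive library it ran Tgfb1, Lrrc32, Smad7, Smad3, Pmepa1, Tgfbr2, Tgfbr1, Furin, Smad2 and Tgfbr3. In the Thy1.1-negative library Smad7 preceded Lrrc32, Tgfbr2 preceded Pmepa1, and Tgfbr1 came after Furin and Smad2. Neighbours whose counting interval of the ratio held 1 were Tgfbr1 and Furin in Thy1.1-positive cells (0.951 to 1.06) and Pmepa1 and Furin in Thy1.1-negative cells (0.976 to 1.098).

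This order depends on the gene length that the authors divided by. The recovered reads imply a length of 1123 bases for Tgfb1, whose longest annotated transcript has 2573, and 3817 bases for Lrrc32, whose longest has 4576. Neither is within 1 base of the mean transcript length (1236.8 and 2918 bases), so the reads of both rest on the nearest fit. With the longest transcript as the length, Lrrc32 was first in both libraries, at 123 FPKM in Thy1.1-negative and 219 FPKM in Thy1.1-positive cells, and Tgfb1 second, at 115 and 163 FPKM. Smad3 would then stand at 39.3 and 31.1 FPKM and Smad2 at 12.7 and 11.6 FPKM. The place of Tgfb1 by other lengths depends on this fit. A larger multiple of its reads would raise its level there and could put it first again, which was not tested. The ratio of a gene between the libraries does not depend on its length.

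**Figure D4:**
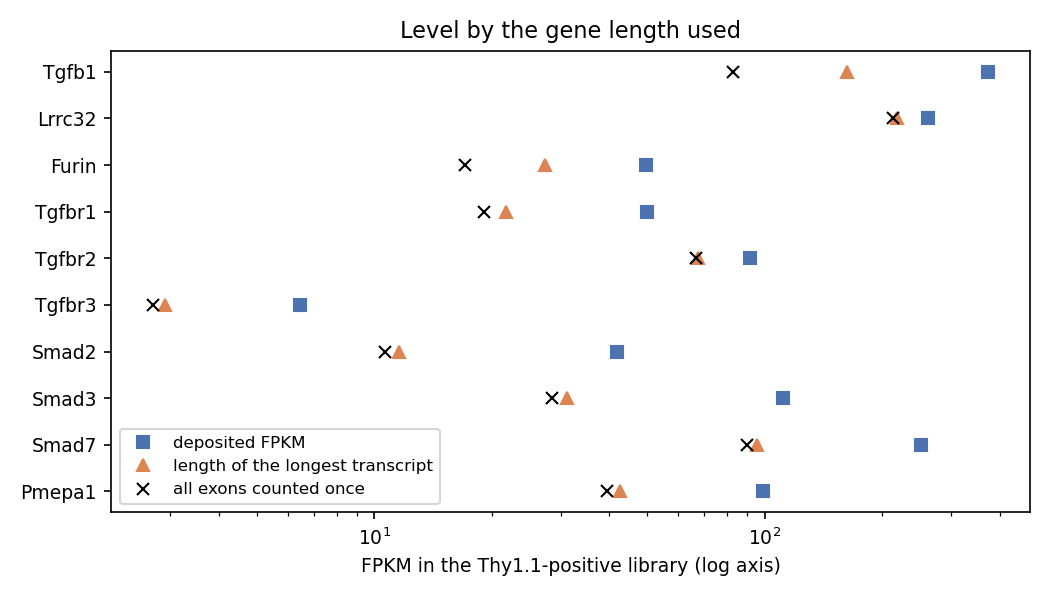
FPKM of each member in Thy1.1-positive cells (log axis) as deposited (squares), and from the same reads with the length of the longest annotated transcript (triangles) or of all exons counted once (crosses). The square of Tgfb1 is the farthest right, whereas by both other lengths Lrrc32 is, with the reads of both genes resting on the nearest fit.

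Among the other ligands and the proteins that store or release TGF-beta, 9 of 13 measured genes lay above 0. Levels are given from here on with Thy1.1-negative cells first. Of 29 genes listed, these 13 had a mean of at least 1 FPKM, with a median of 0.22. By the 25% rule 5 of them were higher in Thy1.1-negative cells and 0 lower, beside 15.2% and 10.7% of all genes. Of all 12820 genes at this minimum, 7070 lay above 0. Itgb1, the integrin beta 1 chain, which pairs with the alpha v chain among others, stood at 286 FPKM against 112 FPKM, a ratio of 2.56 (2.47 to 2.65). Itgb3, another partner of alpha v, stood at 10.6 against 4.36 FPKM, a ratio of 2.44 (2.17 to 2.74). These were the 2 genes of the list past 2-fold. Bmp7, a ligand of the wider family, had a ratio of 1.60 (1.42 to 1.81) at 16.1 against 10.1 FPKM. Mmp9, a protease, had a ratio of 1.60 from 75 and 47 reads.

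The integrin that releases TGF-beta from GARP on Treg cells pairs Itgav with Itgb8, and this pair did not follow Itgb1. Itgav stood at 128 against 140 FPKM, a ratio of 0.916 (0.884 to 0.950). Itgb8 stood at 13.4 against 16.9 FPKM, a ratio of 0.796 (0.737 to 0.859), and at -0.31 lay just inside the 25% rule. Nrros, which anchors latent TGF-beta on myeloid cells, was level at 25.9 and 26.6 FPKM. The other TGF-beta isoforms were scarce, with Tgfb2 at 0.148 FPKM in both libraries and Tgfb3 at 1.28 against 0.524 FPKM. Tgfb1 was thus the isoform with abundant transcripts in both populations. Itgav, Itgb8, Nrros, Tgfb2 and Tgfb3 were named after their values were seen.

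Other receptors of the family were low. Of 15 receptors, decoys and receptor partners listed, 8 were measured at a mean of at least 1 FPKM, 1 was lower and 1 higher by that rule, and the median was -0.14. Bambi, a decoy receptor, stood at 2.15 against 3.16 FPKM, a ratio of 0.681 (0.567 to 0.818). The activin receptors Acvr2a and Acvr1b had ratios of 0.798 and 0.802, at 7.90 against 9.90 FPKM and 5.93 against 7.39 FPKM. Fkbp1a, which binds type I receptors and keeps them silent, was the gene of the list with the highest level and was higher, at 156 against 111 FPKM, a ratio of 1.41 (1.33 to 1.499).

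The shared partner Smad4, which joins Smad2 and Smad3 in a complex, was level at 90.1 and 93.4 FPKM, with a ratio of 0.964 (0.909 to 1.02). Of the 5 other Smads, 3 were measured and none passed the 25% rule. Smad1 and Smad5, which serve bone morphogenetic proteins, stood at 5.20 against 6.59 FPKM and at 12.6 against 12.4 FPKM. Smad3 and Smad7 thus differed while Smad4 lay between them with an interval that held 1.

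Of 26 measured regulators and cofactors of Smads, 5 were lower in Thy1.1-negative cells and 0 higher by the 25% rule, with a median of -0.11. Of all genes, 10.7% were lower and 15.2% higher by this rule. Zfyve16, an endosomal protein that binds Smads, had the largest difference, at 13.3 against 26.5 FPKM, a ratio of 0.502 (0.458 to 0.551). Usp11, a deubiquitinase of the type I receptor, stood at 8.03 against 14.2 FPKM, a ratio of 0.564 (0.499 to 0.637). Skil, the Smad corepressor SnoN, stood at 156 against 216 FPKM, a ratio of 0.723 (0.706 to 0.740), and Zeb1, a repressor, at 87.9 against 119 FPKM, a ratio of 0.740 (0.706 to 0.775). Ski, the other corepressor of that pair and the remaining gene of the 5, had a ratio of 0.789 (0.767 to 0.811) and was named after its value was seen. Tgif1, a further corepressor and the most abundant of the list, stood at 368 against 439 FPKM.

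The TAK1 kinase branch, which the receptors use alongside Smads, differed little. All 6 genes were measured, with a median of -0.05. By the 25% rule 0 were lower and 1 was higher, beside 10.7% and 15.2% of all genes. Daxx, an adaptor of the type II receptor, was higher at 73.2 against 57.1 FPKM, a ratio of 1.28. Tab1 had a ratio of 1.24, Traf6 of 0.879 and Tab2 of 0.922.

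Of 15 measured genes that TGF-beta induces, 12 lay below 0, beside 44.9% of all genes. Of the same 15, 5 were lower and 1 higher by the 25% rule, beside 10.7% and 15.2% of all genes. The median of the 15 was -0.22. Of the 15, 6 also belong to the list of regulators, and Skil and Ski are among the lower genes of both lists. Id1, an inhibitor of helix-loop-helix factors, had a ratio of 0.559 (0.356 to 0.864) from 34 and 61 reads. Foxp3, the factor that defines Treg cells, had a ratio of 0.670 (0.647 to 0.693) at 158 against 237 FPKM. Rgs16, a regulator of G protein signalling, had a ratio of 0.705 (0.680 to 0.731) at 121 against 171 FPKM. Gpr15, a homing receptor for the colon, went the other way at 10.5 against 3.42 FPKM, a ratio of 3.08 (2.51 to 3.81). Itgae, the integrin chain CD103 and a widely used marker of TGF-beta exposure in T cells, was near level at 35.4 against 39.6 FPKM, a ratio of 0.894 (0.847 to 0.944), and was named after its value was seen.

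Over the 65 measured genes of these lists that are not members, 9 were lower and 8 higher by the 25% rule. Of all genes, 10.7% were lower and 15.2% higher, so both counts were near those shares. After upper-quartile rescaling 3 of the 65 were lower and 20 higher, where 5.03% of all genes were lower and 40.5% higher. The median of the 65 was -0.04 with the deposited values. Some of these genes respond to other signals too.

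**Figure D5:**
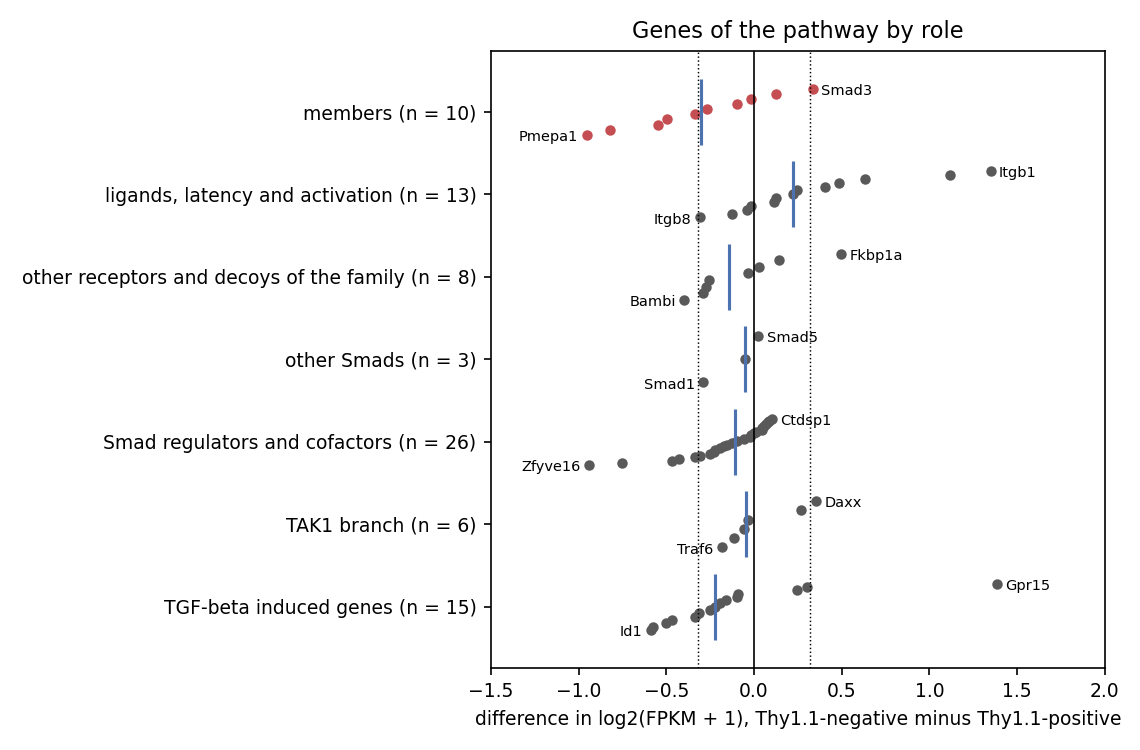
Difference in log2(FPKM + 1), Thy1.1-negative minus Thy1.1-positive, of each gene with a mean of at least 1 FPKM, by role (members in red, median of each list as a blue bar, dotted lines at the 25% rule). The genes at both ends of each list are named; Pmepa1 and Smad3 end the members, and Itgb1, Itgb3 (not named) and Gpr15 lie past 2-fold.

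Markers of other cells and states were read beside these values. Of all genes, 10.7% were lower and 15.2% higher by the 25% rule used for them. Cd3e, a chain of the T cell receptor complex, stood at 292 FPKM in Thy1.1-negative and 248 FPKM in Thy1.1-positive cells, and Cd4 at 471 and 327 FPKM, so the T cell label held in both. T cell markers were also higher in Thy1.1-negative cells by the 25% rule in 4 of 8 cases, with a median of 0.32 and Trac highest, at 783 against 567 FPKM. Treg markers went with the members: 4 of 7 were lower in Thy1.1-negative cells by the 25% rule, Il2ra at a ratio of 0.482 among them, while Ctla4, the highest, had a ratio of 1.05. Proliferation genes went against them, with 9 of 12 higher and 0 lower by the same rule and a median of 1.84. Of the 12, 8 were at least 2-fold higher, beside 1.93% of all genes. Their summed levels were 496 against 334 FPKM, and Pcna, the most abundant of the 12, stood at 273 against 245 FPKM. Platelets are rich in Tgfb1, and their markers Pf4 and Ppbp stood at 0.184 and 0.150 FPKM in Thy1.1-negative cells and at 0.0917 FPKM and 0 in Thy1.1-positive cells (both named after their values were seen). The 5 platelet markers summed to 9.20 against 10.9 FPKM, of which Itga2b made 8.11 and 10.1 FPKM. Of 7 myeloid markers, only Itgam had a mean of at least 1 FPKM, at 4.17 against 0.272, and the summed levels were 5.55 against 2.04 FPKM. B cell markers summed to 14.5 against 9.34 FPKM over 7 genes, with Cd79b highest, at 6.45 against 3.97 FPKM. Of the 3 measured B cell markers, 2 were higher and 0 lower by the 25% rule, and 1 lay below 0 (-0.22).

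Of 4 plasma cell markers, both measured ones were higher by the 25% rule, beside 15.2% of all genes. The plasma cell marker Prdm1, which Treg cells also express, stood at 15.0 against 6.62 FPKM, a ratio of 2.27 (2.02 to 2.55). The only measured natural killer marker of 4, Klrb1c, rested on 56 and 12 reads, a ratio of 4.68 (2.48 to 9.598), and Ncr1 was listed at 0 in Thy1.1-negative cells. Among erythroid markers Hbb-bs rested on 8 and 27 reads, a ratio of 0.297 (0.117 to 0.673). Of the stromal markers Col1a1 rested on 57 and 23 reads, a ratio of 2.49 (1.51 to 4.23). Of 5 dendritic cell markers 2 were measured. Cst3 was higher by the 25% rule, at 63.5 against 50.1 FPKM, and the other measured one had a difference of -0.09. The endothelial marker Pecam1 stood at 84.8 against 63.5 FPKM, while Cdh5, Kdr and Tek ranged from 0.0405 to 0.157 FPKM. Cd8b1, a chain of CD8, stood at 4.603 against 4.25 FPKM. Summed levels were 19.0 against 9.59 FPKM for plasma cell and 2.26 against 0.791 FPKM for natural killer markers. They were 2.50 against 1.08 FPKM for stromal, 66.5 against 53.2 FPKM for dendritic, 85.2 against 63.7 FPKM for endothelial and 4.78 against 4.49 FPKM for CD8 markers. The part of any of these marker lists in the members' differences was not tested.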

How the data were processed

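Per the labels' protocols, CD4+ T cells were enriched with magnetic beads and sorted, and the NEBNext Ultra kit was used on 3 µg of RNA per library. The authors deposited FPKM values in 1 table of Ensembl genes, with a column for each population. Bowtie2 2.2.3, TopHat2 2.0.12, HTSeq 0.6.1 and the build mm9 are named in the submitters' processing notes. The sources used here give no settings, annotation or strand handling. Symbols came from a table of Ensembl IDs, which named 96.8% of IDs, and transcript lengths from GENCODE M21 on GRCm38; gene positions on mm9 are not reported.

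Whole reads were recovered from the ratios of the 23442 genes above 0 in both libraries, which were ratios of whole numbers within a tolerance of 2e-12. Library totals of 18536339 (Thy1.1-negative) and 18600581 (Thy1.1-positive) reads came from genes with 1 transcript. Each gene's reads were its smallest whole-number pair times the factor that made the implied length whole and nearest to the mean length of its transcripts. The implied length was whole for 99.7% and within 1 base of that mean for 54.2% of genes with a mean of at least 1 FPKM, and for 5 of the 10 members it was within 1 base. For the other 5 the multiple rests on the nearest fit. Members had 304 to 18615 reads. Intervals are exact (Clopper-Pearson at 95%, or the conditional odds ratio for a proportion of 2 genes); they cover counting error only.

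Differences are in log2(FPKM + 1); the pseudocount understates differences of low genes. There is 1 library per population, so genes were counted by size (2-fold, or the higher level at least 25% above the lower, at a mean of at least 1 FPKM) and no test was run. The members, lists, pathway comparisons and the smaller fold were chosen with earlier results of these data known. Named were all members and, of each pathway list, the highest gene, up to 4 with the largest difference and those past 2-fold, with Foxp3, Il2ra, Cd4, Cd3e and the highest gene of other marker lists; further genes are marked as named after their values were seen. Alternatives were pseudocounts of 0.1 and 5, other filters, a fold of 1.5 and 5 rescalings (same sum, same sum of protein-coding genes, same sum without the 100 highest genes, median gene centred, upper quartile); other gene lengths, proportions within a library and a minimum of 40 FPKM were added after seeing the data. The recovery of reads was tested on simulated data in which each gene's length was set to the rounded mean length of its transcripts. So the simulation could not test the choice of multiple where the implied length differs from that mean. In the real data the recovered reads summed to 100.12% of the Thy1.1-negative and 100.05% of the Thy1.1-positive total. Python 3.11.15, numpy 2.4.6, pandas 2.3.3, scipy 1.17.1 and matplotlib 3.10.9 were used.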

Additional observations from a re-analysis of the deposited data

How the results depend on the processing

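No paired analysis was possible because each population had 1 library, and none could be left out in turn. With the upper quartile made equal, the members' median was -0.049 (from -0.30), 2 members were lower and 2 higher by the 25% rule, and of the other pathway genes 3 were lower and 20 higher, beside 5.03% of all genes lower and 40.5% higher. Smad3 no longer passed the 25% rule, leaving 0 higher members, when the median gene was centred or the 100 highest genes were left out of the sum. At a fold of 1.5 in place of the 25% rule, 2 members were lower and 0 higher, and 3 pathway genes were lower and 4 higher, beside 3.85% and 5.81% of all genes; in place of 2-fold, 2 members passed. A pseudocount of 0.1 gave 14 lower pathway genes (13.4% of all genes), and centring on the median gene or leaving out the 100 highest gave 13 each (12.04% and 12.06% of all genes). A minimum of 40 FPKM gave 5 lower and 3 higher, beside 5.97% and 11.4% of all genes at that minimum. Fewer pathway genes remained there than the 65 measured at a minimum of 1 FPKM. The signs of Furin (0.23) and Tgfbr3 (0.12) turned with the upper quartile; no other member changed sign under a rescaling or pseudocount tried. Depth limits Tgfbr3, at 304 and 330 reads.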

Other observations

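The genes whose pair of levels was nearest to that of Pmepa1, by Euclidean distance in log2(FPKM + 1) over both libraries, were Faim, an inhibitor of apoptosis, Ergic1, a protein of the early secretory pathway, and Tnfsf8, the ligand of CD30. Their ratios, Thy1.1-negative over Thy1.1-positive, were 0.526, 0.626 and 0.612, all higher than the 0.511 of Pmepa1. For Smad3 the nearest were Lsm4, an RNA-binding protein, Akt1, a kinase, and Ighd4-1, a short antigen receptor gene segment, with ratios of 1.26, 1.30 and 1.22. FPKM divides by length, so a short segment reaches a high value with few reads. The ratio of Ighd4-1 is also that of Thbs1, which had 28 and 23 reads, so its level is not read as expression like that of Smad3. With 2 libraries such nearness says only that level and ratio are alike.

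Exons of Furin shared 1.29% of their bases with an opposite-strand gene model, Gm44851, and those of Tgfbr3 shared 4.54% with Gm43422 on the same strand, in the GENCODE M21 annotation. The other 8 members shared no exon base with another gene.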
